A study of Mus musculus with 4 samples.

Results

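The genes described here are 10 selective autophagy and mitophagy genes, taken by name: Sqstm1, Nbr1, Optn, Tax1bp1, Calcoco1, Bnip3, Bnip3l, Pink1, Mfn2 and Usp30. They were compared with the 21900 protein-coding genes of the reference. Of the 10, 5 were in the authors' table of genes related to differential peaks of N6-methyladenosine (m6A, a methyl mark on adenosines of RNA), and 5 were not. Sqstm1 and Bnip3l were on 2 lines each, and Pink1, Mfn2 and Usp30 on 1 line each. Nbr1, Optn, Tax1bp1, Calcoco1 and Bnip3 were on 0 lines. All 10 had 1 Ensembl gene ID each in the names table. Matching by the authors' symbols instead of by ID gave the same share of the 10 genes listed, 50%.

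The cells were MIN6, an insulin-secreting line from a mouse insulinoma that stands in for pancreatic beta cells. The labels give its strain as C57BL/6. Cells in 1 arm had received a control vector and cells in the other a GR expression vector, at 10 µg of plasmid per dish with Lipofectamine, and RNA was taken 24 hours later. GR is read here as the glucocorticoid receptor, since the labels give only the abbreviation. Each arm had 1 input library and 1 library of RNA fragments pulled down by an m6A antibody, which makes 4 libraries. The promoter of the vector and the level of GR reached are not given in the sources used here. Neither kind of library was replicated within an arm, so no comparison has a replicate check, and the files used give no value per library, so the depth is unknown.

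Selective autophagy delivers chosen cargo, such as protein aggregates or damaged mitochondria, to the lysosome. Receptors such as p62 (the product of Sqstm1), NBR1, optineurin and TAX1BP1 bind ubiquitin on the cargo and LC3-family proteins on the growing autophagosome. Mitochondria can also be removed through receptors that sit in their outer membrane and bind LC3 directly, among them BNIP3 and BNIP3L (also called NIX). On damaged mitochondria the kinase PINK1 accumulates, phosphorylates ubiquitin and starts the marking of outer membrane proteins with ubiquitin. Mitofusin 2 is one of the proteins then marked, and the deubiquitinase USP30 removes such marks. Beta cells depend on mitochondria to couple glucose to insulin release.

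The gene table gives an Ensembl gene ID, a symbol and the names of protein domains on each line. It gives no direction, size, position or p-value, so a listed gene cannot be said to have gained or lost m6A. Nor is it stated what a single line represents. The lines of an ID were identical to each other for all 9225 IDs, so the second line of Sqstm1 or Bnip3l added no content to the first. The share of the 10 genes that was listed was 50% (exact Clopper-Pearson 95% interval 18.7% to 81.3%, counting error only), against 25.2% of all protein-coding genes. The interval holds that background share. The background was not limited to genes expressed in these cells, since no expression value is given. It also counts genes without an Ensembl ID as not listed (20946 of the 21900 had an ID). Shares set beside the 25.2% are therefore not matched for expression. Of all protein-coding genes, 11.2% were on at least 2 lines, and among the listed ones 55.5% were on 1 line, 25.1% on 2 and 19.4% on 3 or more. The line numbers of Sqstm1, Bnip3l, Pink1, Mfn2 and Usp30 were thus the 2 most frequent ones.

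**Figure D1:**
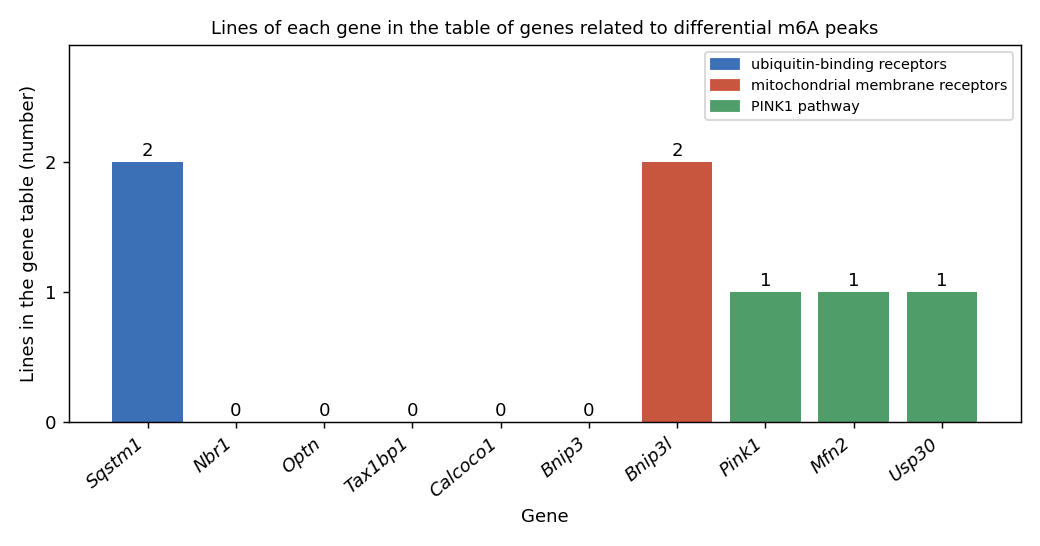
Number of lines (vertical axis) of each of the 10 genes (horizontal axis) in the table of genes related to differential m6A peaks, coloured by role. Sqstm1 and Bnip3l have 2 lines, the 3 PINK1 pathway genes have 1, and the other 5 genes have 0.

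Of the 5 genes grouped here as ubiquitin-binding receptors, Sqstm1 was the only one listed (20%, 0.505% to 71.6%), a share near the 25.2% of all protein-coding genes. Sqstm1 lies on chromosome 11, bases 50200152 to 50210820 of GRCm38.p6 (mm10 is built on GRCm38). At 10669 bases it is the shortest of the 10 genes. Its 2 lines carry 6 domain names, among them the PB1 domain, through which p62 polymerises, a ZZ-type zinc finger and the ubiquitin-associated (UBA) domain, which binds ubiquitin. Nbr1, a receptor that works together with p62 (chromosome 11, 101552107 to 101581951), was absent. So were Optn (chromosome 2, 5020521 to 5064399) and Tax1bp1 (chromosome 6, 52713692 to 52766780). Calcoco1 (chromosome 15, 102706777 to 102722178), a relative of the receptor NDP52, was the remaining absent gene of this group. The group name is a label, and ubiquitin binding is not claimed here for the product of Calcoco1.

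Of the receptors in the mitochondrial outer membrane, Bnip3l was listed on 2 lines and its paralog Bnip3 on 0. Bnip3l lies on chromosome 14, bases 66985238 to 67008877, and its lines carry a single domain name, BNIP3, which no other listed ID has. Bnip3 lies on chromosome 7, bases 138890836 to 138909506. The absence of Bnip3 held for its own ID only. The authors' KEGG table mapped another listed ID, ENSMUSG00000109881 (the unnamed gene model Gm45507), to the Entrez gene 12176, which is Bnip3. Gm45507 was on 4 lines of the gene table, with no symbol and no domain name deposited. It was in 0 GO gene lists, and its position is not in the reference table used here. Whether its lines come from peaks in Bnip3 was not tested.

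All 3 genes of the PINK1 pathway were listed, on 1 line each (100%, 29.2% to 100%, against 25.2% of all protein-coding genes). Pink1, which encodes the kinase, lies on chromosome 4, bases 138313409 to 138326296, and its 4 domain names are all of the protein kinase fold and its sites. Mfn2, the mitofusin that fuses outer membranes, lies on the same chromosome at 147873586 to 147904909 and had 6 domain names, among them the dynamin-type GTP-binding domain. Its paralog Mfn1 was absent. Usp30 (chromosome 5, 114100299 to 114123510) had 4 domain names of the ubiquitin-specific protease family. With Bnip3l, the mitochondrial genes had 4 of 5 members listed (80%, 28.4% to 99.5%), and the genes grouped as ubiquitin-binding receptors 1 of 5, beside the same 25.2%. These groups are too small to compare, their intervals overlap, and the roles were joined into a mitochondrial group after the lines were seen.

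A microRNA gene, Mir7019, lies inside Pink1 on the same strand, and it was itself listed on 1 line. It is the only microRNA gene of the reference table within the bounds of any of the 10 genes. Its sequences are shown because Pink1 and Mir7019 each have 1 line and the table does not say whether both lines stand for the same peak. The hairpin covers chr4:138316132-138316200 on the minus strand (GRCm38.p6, RefSeq), with both mature arms in capitals. In the mature sequences the capitals mark the seed, bases 2 to 8.
Mir7019 hairpin: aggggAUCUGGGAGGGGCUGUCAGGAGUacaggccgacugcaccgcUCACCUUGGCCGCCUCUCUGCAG
mmu-miR-7019-5p: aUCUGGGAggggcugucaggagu
mmu-miR-7019-3p: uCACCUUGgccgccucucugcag
The 2 arms have different seeds. Mature miRNAs were not measured in these libraries, so the line says nothing on their level.

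Some of the genes lie so close to a listed neighbour that a peak at their ends could be assigned to either, and whether the authors assigned peaks by strand is not given in the sources used here. Sqstm1 (minus strand) and Mrnip (plus strand) face each other with their 3′ ends, with 35 bases between them, and Mrnip was also on 2 lines. Usp30 (plus strand) and Alkbh2 (minus strand), a DNA repair dioxygenase gene, likewise face each other with their 3′ ends, 415 bases apart, and Alkbh2 had 3 lines against 1 for Usp30. Pink1 faces Ddost in the same way at 789 bases, and Ddost was on 0 lines. Nbr1 showed the reverse: it was absent although Brca1, 151 bases from its 5′ end, had 4 lines and Tmem106a, 290 bases past its 3′ end, had 2. With genes inside the bounds of a member left aside, 4 of the 10 genes had a neighbour within 1000 bases. Of those 5 neighbours, 4 were listed, against 25.2% of all protein-coding genes. The genes left aside were Mir7019 in Pink1 (1 line) and the pseudogenes Gm18258 in Bnip3 and Gm17833 in Usp30 (0 lines each). The 5 neighbours are too few to compare, and how often other genes have a listed neighbour is not given here. Whether shared peaks account for any line was not tested.

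The lengths of listed and absent members overlapped, and the part of length in the listing was not tested. The listed genes spanned 10669 to 31324 bases (median 23212) and the absent ones 15402 to 53089 (median 29845). The shortest member, Sqstm1, was listed, and the longest ones, Optn and Tax1bp1, were absent. With all protein-coding genes split into 10 classes of equal size by length, between 5.02% and 32.6% of a class was listed. In the classes that hold the 10 genes the share went from 25.4%, about that of all genes, for Optn and Tax1bp1 to 32.6% for Calcoco1 and Pink1. The class that holds Bnip3, Bnip3l and Usp30 had 29.1% listed, with 1 of these 3 absent.

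The wider pathway was described with a list of 45 selective autophagy and mitophagy genes, of which 16 were listed (35.6%, 21.9% to 51.2%). Without the 10 genes above it had 11 of 35 (31.4%, 16.9% to 49.3%), and the background of 25.2% lies within both intervals. Listed were the mitophagy receptors Fundc1, Phb2 and Bcl2l13 (1 line each), the receptor for endoplasmic reticulum Tex264 (2 lines), the glycogen receptor Stbd1 and the ubiquitin-binding adaptor Tollip (1 line each). Of the regulators, Mul1, a ubiquitin ligase of the outer membrane, and Ambra1, which promotes autophagy through beclin, were on 2 lines each. Rhot2, a motor adaptor that is degraded after PINK1 activation, was on 3 lines. Tomm20, an import receptor, and Keap1, which p62 binds and titrates from NRF2, were on 1 line each.

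The other 24 genes of the wider list were absent. Among them was Tbk1, whose product is the kinase that phosphorylates optineurin and p62. The deubiquitinase genes Usp8 and Usp15, the ligase gene March5, and Vcp, whose product extracts ubiquitinated mitofusins, were absent as well. So were the fission and fusion genes Dnm1l, Fis1, Opa1 and Mfn1, the voltage-dependent channel gene Vdac1, the import gene Tomm7, the proteases and phosphatases Parl and Pgam5, and Rhot1. Also absent were Wdfy3, Ncoa4, Retreg1, Rtn3, Sec62, Ccpg1, Fkbp8, Fbxo7 and Nfe2l2. Absence from the gene table does not show that a transcript had no m6A change, since genes such as Ulk1 are absent there and have a peak in the authors' autophagy table.

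None of the 10 genes was in the authors' second table, which gives peak positions and fold changes for 31 peaks of 22 autophagy genes. Genes of the core machinery did have peaks there. Of 6 genes of the ULK complex, which starts autophagy, 5 had a peak there but 2 (Ulk3 and Atg101) were in the gene table. Of 9 genes of the LC3 family and its ATG4 proteases, 5 had a peak there and 5 were in the gene table, 3 of them in both (Map1lc3a, Map1lc3b and Atg4c). The share listed in the gene table was 33.3% (4.33% to 77.7%) for the ULK complex and 55.6% (21.2% to 86.3%) for the LC3 family. Both intervals overlap with that of the 10 receptor and mitophagy genes. How the authors chose the 22 genes is not given in the sources used here.

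**Figure D2:**
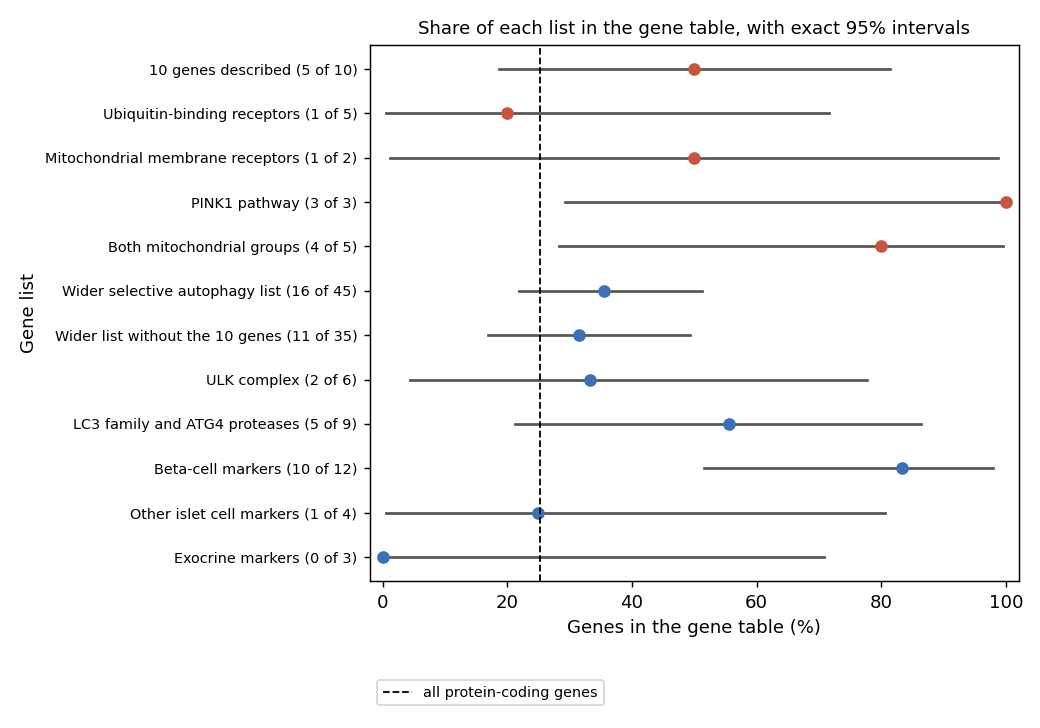
Share of each gene list in the gene table (horizontal axis, percent) with exact 95% intervals as bars, for the 10 genes and their groups (red) and for other lists (blue); the dashed line marks the 25.2% of all protein-coding genes. The intervals of the PINK1 pathway (from 29.2%), of both mitochondrial groups joined after the lines were seen (from 28.4%) and of the beta-cell markers (from 51.6%) lie above the line, and the others hold it.

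The labelled cell type could not be checked by level, since no expression value is given, and presence in a table of differential peaks does not show how much of a marker is expressed. Of 12 beta-cell markers 10 were in the gene table (83.3%, 51.6% to 97.9%, against 25.2% of all protein-coding genes), with Ins2 and Neurod1 absent. Of 4 markers of other islet cells Gcg was listed, on 1 line (25%, 0.631% to 80.6%), and of 3 exocrine markers (Cpa1, Prss1 and Cela1) 0 were (exact interval up to 70.8%).

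The authors' Gene Ontology (GO) table was searched for terms on autophagy, mitophagy and mitochondria whose gene lists hold any of the 10 genes. There were 86, of which 29 had an autophagy, mitophagy or phagophore word and 57 a mitochondrial word only. In the authors' deposited table all 16568 terms have a p of 1 and a corrected p of 1, so the share called is 0%. The table can therefore rank no term, and the counts below are a description. The gene lists of all terms together held 5409 distinct IDs, 26.0% of the 20770 background genes, while the deposited total of 10022 genes with a peak gives 48.3%. What the deposited total counts is not stated. GO terms are nested, so the same genes recur from term to term.

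Pink1 was in 71 of the 86 terms, Mfn2 in 41, Bnip3l in 34, Usp30 in 24 and Sqstm1 in 11. Pink1 is also the most annotated of them over the whole GO table, with 637 terms against a median of 82 for the 5409 genes. Of those genes, 31 had as many terms or more, Pink1 included. Mfn2 was in 255 terms, Sqstm1 in 293, Bnip3l in 196 and Usp30 in 116. Sqstm1 thus had the second most GO terms of the 5 and the fewest of the 86.

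All 5 listed genes were held by autophagy of mitochondrion (24 of 65 background genes with a peak), macroautophagy (76 of 187), autophagy and the identical list of process utilizing autophagic mechanism (132 of 367 each). Mitophagy (9 of 20) and selective autophagy (16 of 43) held Sqstm1, Pink1, Mfn2 and Usp30 but not Bnip3l. Sqstm1 alone was in autophagosome (32 of 89) and in phagophore assembly site (10 of 33). Mfn2 alone was in protein localization to phagophore assembly site (3 of 13). Pink1 and Mfn2 shared autophagosome assembly (38 of 92) and autophagosome organization (38 of 95).

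In the terms on regulation, Pink1 was in both directions, Mfn2 and Bnip3l in positive and Usp30 in negative regulation. Bnip3l, Pink1, Mfn2 and Usp30 were all in regulation of autophagy (84 of 224), regulation of macroautophagy (39 of 99) and regulation of autophagy of mitochondrion (14 of 32). Bnip3l, Pink1 and Mfn2 were in positive regulation of autophagy (38 of 107) and of macroautophagy (22 of 64). Pink1 and Mfn2 were in positive regulation of mitophagy (4 of 9) and of autophagy of mitochondrion (6 of 17). They also shared the terms on mitochondrial depolarization: positive regulation of mitophagy (4 of 9) and regulation (6 of 14) and positive regulation (6 of 13) of autophagy of mitochondrion in response to it. Usp30, which opposes mitophagy, was with Pink1 in negative regulation of autophagy (29 of 65), of macroautophagy (17 of 28) and of autophagy of mitochondrion (4 of 8), and alone in negative regulation of mitophagy (2 of 6). Regulation of mitophagy (6 of 15) held Pink1, Mfn2 and Usp30. Pink1 alone was in regulation (15 of 32) and negative regulation (9 of 12) of autophagosome assembly. Sqstm1 was in none of the terms on regulation of autophagy.

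**Figure D3:**
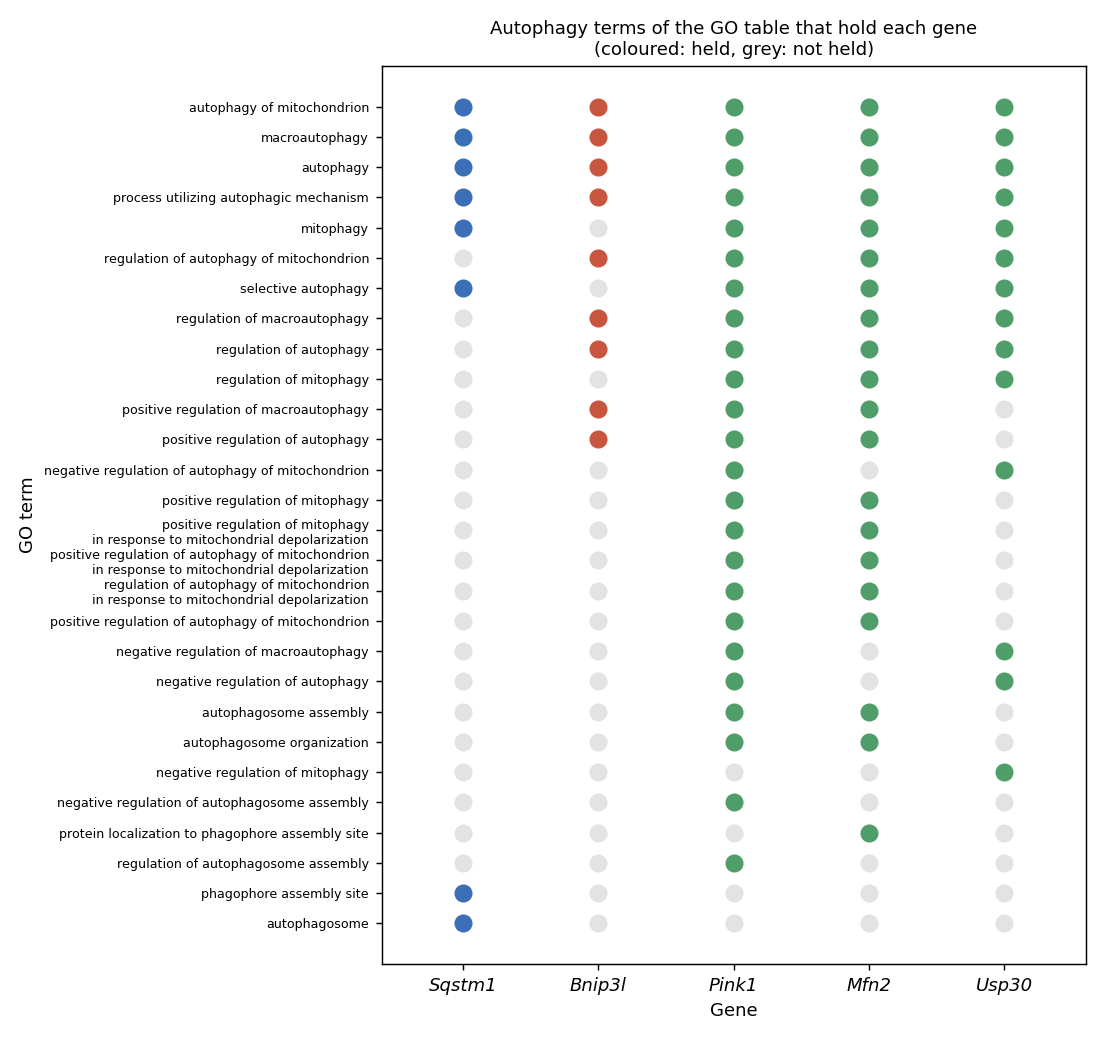
The plot draws 28 of the 29 autophagy, mitophagy and phagophore terms of the GO table (vertical axis) against the 5 listed genes (horizontal axis); a coloured dot means that the gene list of the term holds the gene and a grey dot that it does not. Over all 29 terms, Pink1 is in 24, Mfn2 in 21, Usp30 in 14, Bnip3l in 9 and Sqstm1 in 8.

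The other genes of these terms show what the receptors were listed with. The 9 listed mitophagy genes were Sqstm1, Pink1, Mfn2 and Usp30 with Ambra1 and Tigar (2 lines each) and Becn1, Cdc37 and Hdac6 (1 line each). Becn1 encodes the lipid kinase subunit beclin, Cdc37 a kinase co-chaperone and Hdac6 a deacetylase that binds ubiquitin. Autophagy of mitochondrion added Bnip3l, the LC3-family genes Map1lc3a, Map1lc3b and Gabarap, the conjugation genes Atg3 and Atg12, and Atpif1, Cttn, Fbxw7, Fundc1, Gsk3a, Mul1, Srebf1, Tspo and Wdr45b. Of its 24 genes, Map1lc3b had the most lines, 14, and Wdr45b followed with 3. Selective autophagy added to the mitophagy genes Wdr81 (4 lines), Lgals8, which detects damaged vesicles (3 lines), and Lrsam1, Mapk3, Rab7, Sptlc1 and Stbd1 (1 line each).

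The shares of genes with a peak in these terms were 45% (23.1% to 68.5%) for mitophagy, 36.9% (25.3% to 49.8%) for autophagy of mitochondrion and 37.2% (23.0% to 53.3%) for selective autophagy. The 26.0% of all GO genes lies within all 3 intervals. It lies below those of the larger terms macroautophagy (40.6%, 33.5% to 48.1%) and autophagy (36.0%, 31.1% to 41.1%). Of the 29 autophagy, mitophagy and phagophore terms, 14 had an interval wholly above 26.0%. The same count over all terms is not given here, and none of these shares was tested. These shares include the listed receptor genes themselves, which make up 4 of the 9 mitophagy genes with a peak.

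**Figure D4:**
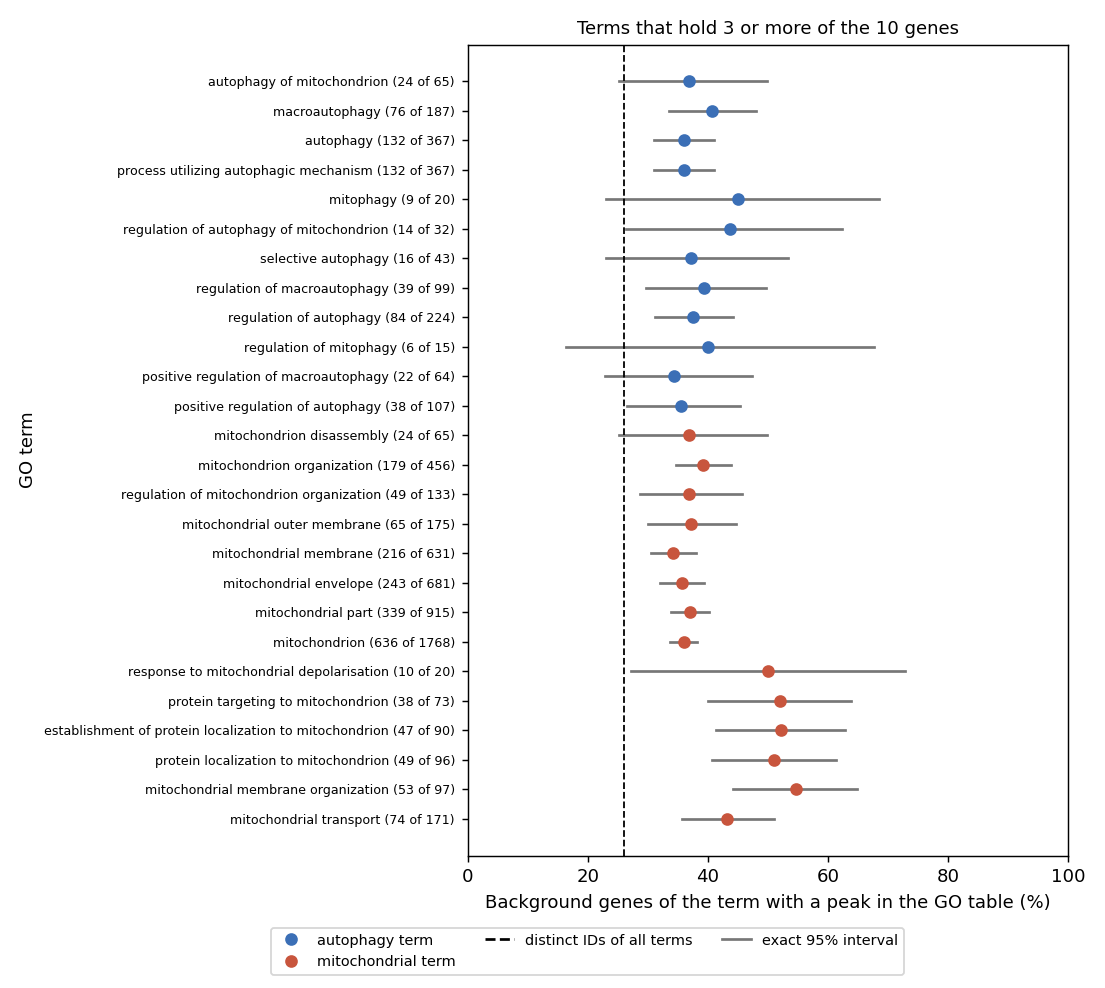
Share of background genes with a peak (horizontal axis, percent) in the autophagy (blue) and mitochondrial (red) GO terms that hold 3 or more of the 10 genes, with exact 95% intervals as bars. The dashed line marks the 26.0% of distinct IDs over all terms; mitophagy, with 9 of 20 genes, has a wide interval, and mitochondrion, with 636 of 1768, a narrow one from 33.7% to 38.3%.

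Of the 57 mitochondrial terms, mitochondrion organization (179 of 456) and mitochondrion disassembly (24 of 65, the same counts as autophagy of mitochondrion) held all 5 listed genes. Bnip3l, Pink1, Mfn2 and Usp30 were in the terms on place: mitochondrion (636 of 1768), mitochondrial part (339 of 915), mitochondrial envelope (243 of 681), mitochondrial membrane (216 of 631) and mitochondrial outer membrane (65 of 175), and also in regulation of mitochondrion organization (49 of 133). Sqstm1, whose product is cytosolic, was in none of the terms on place. Sqstm1, Pink1 and Mfn2 were in response to mitochondrial depolarisation (10 of 20). Its other listed genes were Ambra1, Atpif1, Becn1, Cdc37, Gps2, Hdac6 and Mul1.

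Bnip3l, Pink1 and Mfn2 shared 5 terms on import and membrane structure, of which the first 4 had the highest shares among the terms with 3 or more of the genes. They were mitochondrial membrane organization (53 of 97, 54.6%), establishment of protein localization to mitochondrion (47 of 90, 52.2%), protein targeting to mitochondrion (38 of 73, 52.1%), protein localization to mitochondrion (49 of 96, 51.0%) and mitochondrial transport (74 of 171, 43.3%). Bnip3l and Pink1 shared regulation of protein targeting to mitochondrion (10 of 19), regulation of establishment of protein localization to mitochondrion (13 of 24), regulation of mitochondrial membrane potential (39 of 77) and apoptotic mitochondrial changes (49 of 111). Pink1 and Mfn2 shared positive regulation of mitochondrion organization (25 of 72), mitochondrial membrane part (84 of 231) and the terms on intrinsic components of the mitochondrial membrane (31 of 72) and outer membrane (12 of 24). Pink1 and Usp30 shared negative regulation of mitochondrion organization (20 of 52).

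The terms with 1 of the genes were mostly those of Pink1 and Bnip3l. Bnip3l, which belongs to the BH3-only group of cell death proteins as well, was in the terms on permeability: regulation (28 of 52) and positive regulation (18 of 36) of mitochondrial membrane permeability, both again in apoptosis (19 of 39 and 16 of 31), and mitochondrial outer membrane permeabilization (15 of 28), also in programmed cell death (17 of 33). It was also in mitochondrial protein catabolic process (3 of 6) and negative regulation of mitochondrial membrane potential (5 of 11). Mfn2 was alone in mitochondrion localization (18 of 45).

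Pink1 alone was in the terms on release of cytochrome c (27 of 62, with regulation at 21 of 48 and positive regulation at 12 of 28). In the respiratory chain, it was in mitochondrial ATP synthesis coupled electron transport (23 of 58), its regulation (4 of 5) and positive regulation (4 of 4), and in electron transport from NADH to ubiquinone (8 of 19), its regulation (2 of 3) and positive regulation (2 of 2). Terms on membranes and complexes with Pink1 were mitochondrial inner membrane (141 of 426), mitochondrial protein complex (105 of 271), mitochondrial intermembrane space (38 of 88), inner mitochondrial membrane organization (13 of 28), outer mitochondrial membrane protein complex (9 of 16) and the outer membrane translocase complex (6 of 10). The integral components of the mitochondrial membrane (29 of 70) and outer membrane (11 of 23) held it as well. The remaining ones were maintenance of protein location in mitochondrion (2 of 5), mitochondrion to lysosome transport and mitochondrion-derived vesicle mediated transport (1 of 3 each, Pink1 itself).

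The lowest shares of the 86 terms were those on fission. Mitochondrial fission, with Pink1, had 7 of 38 genes (18.4%, 7.74% to 34.3%), its regulation 4 of 24 (16.7%) and its positive regulation 2 of 16 (12.5%), whereas its negative regulation had 2 of 5. With protein localization to phagophore assembly site (23.1%), those first 3 were the only ones of the 86 terms with a share below 26.0%. Mitochondrial fusion, with Mfn2 and Usp30, had 7 of 22 (31.8%, 13.9% to 54.9%). The intervals of fission and fusion both hold 26.0%. Of the 86 terms, 53 had an interval wholly above 26.0%, and 25 had a share above the 48.3% of the deposited totals. The same counts over all 16568 terms are not given here, so neither number can be called particular to the 86 terms. A term enters this count because it holds a listed gene, so its share is above 0 by choice, and none of these shares was tested.

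In the authors' deposited table of 290 KEGG pathways, 66.9% had a corrected p below 0.05. By Ensembl ID, 2 pathways held any of the 10 genes, and both were below that threshold. Parkinson's disease held Pink1, which is mutated in an inherited form of the disease, with 78 input IDs against 149 background genes, p = 3.19e-12 and a corrected p of 5.31e-11 in the authors' deposited table. Osteoclast differentiation held Sqstm1, which acts there in NF-κB signaling, with 46 input IDs against 133, p = 0.000373 and a corrected p of 0.000917 in the authors' deposited table. Beside Sqstm1 it held Tnfrsf11a, the receptor that starts osteoclast formation, the NF-κB subunits Rela, Relb and Nfkb1, and Nfatc1. Bnip3l, Mfn2 and Usp30 were in 0 pathways. No pathway name holds the word mitophagy. Regulation of autophagy, with 11 input IDs against 40 and a corrected p of 0.213 in the authors' deposited table, held none of the 10 genes.

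The 78 IDs of Parkinson's disease stood for 60 Entrez genes, because 14 genes had more than 1 ID. Cycs, for cytochrome c, had 5 IDs and Ube2l3, for a ubiquitin-conjugating enzyme, had 3. Of the 60 genes, 40 were nuclear genes of the respiratory chain, ATP synthase or cytochrome c by their symbols, such as Cox5a, Uqcr10 and Atp5e. The other 20 included the mitochondrially encoded COX1, ND1, ND2, ND5 and ND6, and, besides Pink1, Park7, Uba1, Ube2l3, Ubb, Vdac3, Ppif, Slc25a4, Th, Slc6a3, Adora2a, Adcy5, Gnai2 and Prkaca. Pink1 was listed by its own ID, but 26 of the 78 IDs were unnamed gene models (Gm and a number). In total, 9 Entrez genes entered only through such models, among them Cycs, Ubb, Ube2l3 and ND1.

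Matched by Entrez gene, 2 more pathways were counted with Bnip3, both through the model Gm45507. They were FoxO signaling (63 input IDs for 59 Entrez genes, against 135) with a corrected p of 9.47e-08, and Legionellosis (31 input IDs for 22 Entrez genes, against 58) with a corrected p of 2.75e-05, both in the authors' deposited table. The FoxO pathway also held Foxo3, Foxo4 and Foxo6 and the autophagy genes Gabarap and Atg12, and Legionellosis held Bcl2l13. The gene table and the KEGG table therefore differ on Bnip3: it is absent by its own ID and counted by its Entrez gene.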

How the data were processed

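The libraries are those described above. BWA 0.7.12, HOMER 4.9.1 and mm10 are named in the submitters' processing notes; the caller of differential peaks and its thresholds are not given in the sources used here. The authors' KEGG p-values come, per the file headers, from a hypergeometric or Fisher exact test with Benjamini-Hochberg correction; the GO p-values were deposited with no test named. Counts of genes per term and pathway were used as deposited, after 63 overflow lines of GO gene lists were joined, and each joined list then held the deposited number of genes. The autophagy table was used for gene symbols only.

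Members were matched to the gene table (17052 lines) by Ensembl ID through a names table, which gave a symbol for 9217 of 9225 IDs and an ID for 20946 of the 21900 protein-coding RefSeq genes (GRCm38.p6). Positions, strands and microRNA sequences are RefSeq's. March5 stands for Marchf5. The members and lists were chosen with earlier results of these data known. The rule was to name all 10 members, the genes of the wider list and every GO term and KEGG pathway that holds a member; a few items under it are not reported here. Domain families, neighbours and genes within terms were chosen after seeing the data. Intervals are exact Clopper-Pearson intervals at 95% and treat genes as independent. No test across conditions was possible, and no enrichment was tested. The line counts and intervals were tested on simulated data. Alternatives were other matching, line counts, backgrounds, term sizes and words, and a stricter KEGG threshold of 0.01. The software was Matplotlib 3.10.9, SciPy 1.17.1 and NumPy 2.4.6 under Python 3.11.15.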

Additional observations from a re-analysis of the deposited data

How the results depend on the processing

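The share of the 10 genes in the gene table, 50%, was also 50% by deposited symbol and in any GO list, 20% with 2 or more lines required or in any KEGG list, and 35.6% for the wider list. The interval of 18.7% to 81.3% is wide enough to hold all of these, so it cannot tell whether the share depends on the setting. For 2 or more lines the background share was 11.2% of protein-coding genes. The 7 lines of the members became 5 when identical lines were counted once. The background share of 25.2% was 23.5% over all 24701 named reference genes and 26.0% by distinct IDs in the GO lists; both lie outside its narrow counting interval. It was 25.6% with RefSeq synonyms matched, a setting chosen after seeing the data. The 86 GO terms became 68 with 10 to 500 background genes and 29 with autophagy and mitophagy words only. The 2 KEGG pathways became 4 by Entrez gene or symbol, and both remained at 0.01. Taking the listed members out of 3 GO terms, also chosen after seeing the data, gave 31.2% for mitophagy, 31.7% for autophagy of mitochondrion and 30.8% for selective autophagy; these falls follow from the removal of listed genes only and show nothing about the terms. No paired analysis was possible because each arm has 1 library of each kind and no values per library were used. Depth is unknown.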

Other observations

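Usp30 was 1 of 17 listed genes among the 55 ubiquitin-specific protease genes named Usp and a number (30.9%, exact 95% interval 19.1% to 44.8%, against 25.2% of all protein-coding genes). Usp10 had the most lines of the family, 4, followed by Usp20, Usp35 and Usp42 with 3 each. Usp1 and Usp51 had 2, and Usp5, Usp11, Usp12, Usp16, Usp25, Usp34, Usp36, Usp39, Usp53 and Usp54 had 1, as Usp30 did. The domain name of the family was on 20 listed IDs, among them Cyld, which encodes a deubiquitinase of NF-κB signaling. Domain names are given for listed IDs only, so this count has no total to set beside it. The family was chosen after seeing the domain names, and its share was not tested.

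Sqstm1 was 1 of 25 listed IDs with the domain name UBA-like superfamily. Others with this name were Lats1 (5 lines), Ubqln2 (4 lines), Ubap1 (3 lines) and the adaptor gene Tollip (1 line). The PB1 domain of p62 was named for 4 listed IDs, the other ones being Pard6a, Pard6b and Map2k5. The counts of IDs with these 2 domain names likewise have no total to set beside them. The 7 listed genes of mitochondrial fission were Ggnbp1 (6 lines), Mtfr1l (5 lines), Mul1 and Tmem135 (2 lines each) and Mapt, Mtfr2 and Pink1 (1 line each). Those of mitochondrial fusion included the cell death genes Bax (4 lines) and Bak1 (2 lines), with Mul1, Oma1, Pld6, Mfn2 and Usp30.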
